A study of Mus musculus and Sus scrofa with 18 samples.

Results

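Choroid plexus genes were followed in the striatal transcriptome of mice with Huntington's disease (HD). The genes were Ttr, Folr1, Kl, Clic6, Enpp2, Aqp1, Otx2, Sostdc1, Prlr and Calml4, which are 10 of the 55357 genes in the mouse count table. The members were chosen by their measured levels, because these vary together between libraries of one group. Their levels and their likeness to each other are therefore given as a description, and the group comparisons of the same libraries are not independent of that choice. All 10 had counts in every library, with a lowest value of 10 counts, and all 10 passed the filter on low counts, which kept 19463 genes.

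The RNA came from the striatum of 9 mice, with 3 mice in each of 3 groups. The group called WT was wild-type mice given AAV9 with a control gRNA and no CasRx, and their age is not stated in the sources used here. The other 2 groups were HD 140Q-KI mice, whose own Htt gene carries exon 1 of human HTT with an expanded CAG repeat, in heterozygous form. They were injected at 6 months of age and their tissue was taken 1.5 months later. The untreated group received AAV9-CasRx with the control gRNA, and the treated group received AAV9-CasRx with 4 gRNAs against human HTT. CasRx is an RNA-cutting Cas13 nuclease, expressed here from the ubiquitous CAG promoter, and the gRNAs were expressed from the U6 promoter. All injections were stereotaxic and reached the striatum of both sides. The knock-in allele and CasRx cannot be told apart in a comparison of either HD group with WT mice.

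The 9 libraries held between 27184356 and 32102121 counts each. CPM is a gene's count scaled to a common library size with edgeR's TMM factors, and a mouse is named by its group and its replicate number. Striatal projection neuron genes, which check the labelled tissue, summed to 2604 CPM or more in every library, and all 15 that could be matched had counts in each. Htt, the targeted gene, ranged from 181.5 to 190.7 CPM in WT, from 140.4 to 149.6 CPM in untreated and from 130.5 to 139.7 CPM in treated mice, and counts at its 3′ end do not separate the alleles. The 4 Y-linked genes examined summed to between 126.1 and 166.3 CPM in the 3 WT mice and untreated mouse 1, and had 0 counts in the other 5 mice, so sex and group nearly coincide.

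The choroid plexus is a fringe of secretory tissue in the brain ventricles. Its epithelial cells make cerebrospinal fluid and pass hormones, vitamins and ions between blood and fluid, and they are joined by tight junctions. The plexus lies in the ventricles beside the striatum but is not part of the striatum, and ependymal cells, which carry motile cilia, line the ventricle wall between them. In bulk tissue, fewer cells of a type and less RNA per cell cannot be told apart.

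Because the genes vary together, stretches before their start sites are shown for the members in which a searched motif was found. RefSeq promoters on GRCm38.p6 were at hand for 5 members, in 10 windows of 250 bases before to 50 bases after a start site. Both strands of each window were searched for TAATCC, the core bound by Otx proteins, for GTTGCC, a short Rfx motif, and for TGTTTAC, a forkhead motif. One window with a match is printed for each motif, as the 250 bases before the start site on the strand of the gene, and capitals mark the match.

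Aqp1, chr6:55336049-55336298, plus strand, GTTGCC:
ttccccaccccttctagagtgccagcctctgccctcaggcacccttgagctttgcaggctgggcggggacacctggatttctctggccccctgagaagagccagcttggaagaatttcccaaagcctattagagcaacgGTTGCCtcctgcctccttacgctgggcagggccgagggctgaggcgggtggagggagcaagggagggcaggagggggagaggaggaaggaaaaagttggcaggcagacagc
Otx2, chr14:48665110-48665359, minus strand, TAATCC read on the opposite strand as GGATTA:
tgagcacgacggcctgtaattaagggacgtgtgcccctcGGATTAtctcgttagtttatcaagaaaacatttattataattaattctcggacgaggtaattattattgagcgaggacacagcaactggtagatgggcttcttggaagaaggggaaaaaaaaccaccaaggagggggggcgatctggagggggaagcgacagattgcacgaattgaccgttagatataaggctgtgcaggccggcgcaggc
Prlr, chr15:10223656-10223905, plus strand, TGTTTAC:
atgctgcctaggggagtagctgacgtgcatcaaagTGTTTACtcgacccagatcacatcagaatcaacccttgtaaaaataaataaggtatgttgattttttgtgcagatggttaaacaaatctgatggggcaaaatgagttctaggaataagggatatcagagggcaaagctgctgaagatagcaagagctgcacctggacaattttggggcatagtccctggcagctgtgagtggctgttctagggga

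The match in Aqp1 begins 111 bases before the start site, that in Otx2 begins 211 bases before it and that in Prlr begins 215 bases before it. GTTGCC was found in 3 of the 10 windows, which belong to Aqp1 and Otx2, TAATCC in 1 window and TGTTTAC in 1 window. The 2 Otx2 windows with GTTGCC overlap and hold 1 site in common, so they are not separate observations. Among 32544 promoters of the same length, 12.4% held GTTGCC, 7.06% held TAATCC and 3.66% held TGTTTAC. No motif was shared by more than 2 of the 5 members, and a match of letters is not evidence that a factor binds there. The windows of Kl and Calml4 held none of the 3 motifs.

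The carriers of the plexus had the widest range among WT mice. Ttr (ENSMUSG00000061808, chromosome 18) encodes transthyretin, which carries thyroid hormone and retinol-binding protein in cerebrospinal fluid. It was at 45.3, 3458 and 1076 CPM in WT mice 1, 2 and 3, at 159.5, 33.0 and 21.2 CPM in untreated mice 1, 2 and 3, and at 204.4, 21.9 and 1136 CPM in treated mice 1, 2 and 3. WT mouse 2 stood highest, WT mouse 3 and treated mouse 3 were close to each other, and WT mouse 1 lay between untreated mice 1 and 2. Folr1 (ENSMUSG00000001827, chromosome 7), the folate receptor that moves folate into the fluid, was at 0.378, 26.6 and 8.97 CPM in WT, at 1.47, 0.940 and 0.612 CPM in untreated and at 1.29, 0.494 and 8.92 CPM in treated mice. The same 3 mice stood out, and the value of WT mouse 1, from 10 counts, was the lowest of all 9. Folr1 overlaps Anapc15 on the opposite strand, which stayed between 15.3 and 20.8 CPM in the 9 libraries. Whether counting used strand is not given in the sources used here.

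The members that move water and ions had the same 3 libraries highest. Aqp1 (ENSMUSG00000004655, chromosome 6) encodes the water channel of the apical membrane. It was at 0.415, 21.8 and 9.41 CPM in WT, at 1.26, 0.537 and 1.26 CPM in untreated and at 1.78, 0.330 and 8.14 CPM in treated mice. WT mouse 2, WT mouse 3 and treated mouse 3 were again above the other 6 mice, none of which passed 1.78 CPM. Clic6 (ENSMUSG00000022949, chromosome 16), a protein of the chloride intracellular channel family, was at 14.3, 91.4 and 46.9 CPM in WT, at 11.0, 8.50 and 7.41 CPM in untreated and at 16.4, 11.1 and 39.2 CPM in treated mice. Each untreated mouse was below each WT mouse and below each treated mouse, which held for no other member in both comparisons.

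The secreted members differed in how far the libraries were spread. Enpp2 (ENSMUSG00000022425, chromosome 15) encodes autotaxin, which makes lysophosphatidic acid and is also made by oligodendrocytes. It was at 238.6, 1586 and 790.4 CPM in WT, at 293.0, 226.7 and 229.5 CPM in untreated and at 340.5, 268.9 and 780.9 CPM in treated mice. The 6 lower libraries lay between 226.7 and 340.5 CPM, so the ratio of WT mouse 2 to WT mouse 1 was 6.65 for Enpp2 against 76.3 for Ttr. Sostdc1 (ENSMUSG00000036169, chromosome 12), a secreted antagonist of BMP and Wnt signals, was at 0.491, 17.1 and 8.01 CPM in WT, at 1.37, 1.28 and 0.815 CPM in untreated and at 3.06, 1.12 and 10.7 CPM in treated mice. Here treated mouse 3 exceeded WT mouse 3 by 1.33 times, and the ratio of WT mouse 2 to WT mouse 1 was 34.8.

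The 2 membrane proteins that take part in hormone signalling also had their highest values in these mice. Kl (ENSMUSG00000058488, chromosome 5) encodes klotho, the co-receptor of fibroblast growth factor 23. It was at 4.19, 138.4 and 57.3 CPM in WT, at 9.23, 3.29 and 4.42 CPM in untreated and at 13.0, 3.59 and 61.7 CPM in treated mice. WT mouse 1 was within the range of the untreated mice and below treated mouse 1. Prlr (ENSMUSG00000005268, chromosome 15), the prolactin receptor, was at 0.567, 30.7 and 16.6 CPM in WT, at 2.70, 2.25 and 0.917 CPM in untreated and at 5.70, 1.02 and 27.5 CPM in treated mice. Treated mouse 3 came nearest to WT mouse 2 in this gene, at 1.66 times the value of WT mouse 3.

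Otx2 (ENSMUSG00000021848, chromosome 14), a homeobox transcription factor needed for the choroid plexus to form, was at 0.756, 17.4 and 9.80 CPM in WT, at 2.07, 1.38 and 1.32 CPM in untreated and at 1.90, 0.922 and 8.11 CPM in treated mice. WT mouse 1 was the lowest of the 9 libraries. Calml4 (ENSMUSG00000032246, chromosome 9), a calmodulin-like protein of epithelial microvilli, was at 1.78, 10.8 and 4.39 CPM in WT, at 0.526, 1.41 and 1.05 CPM in untreated and at 1.01, 0.560 and 3.65 CPM in treated mice. The untreated and WT mice did not overlap, although WT mouse 1 was close to untreated mouse 2.

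**Figure D1:**
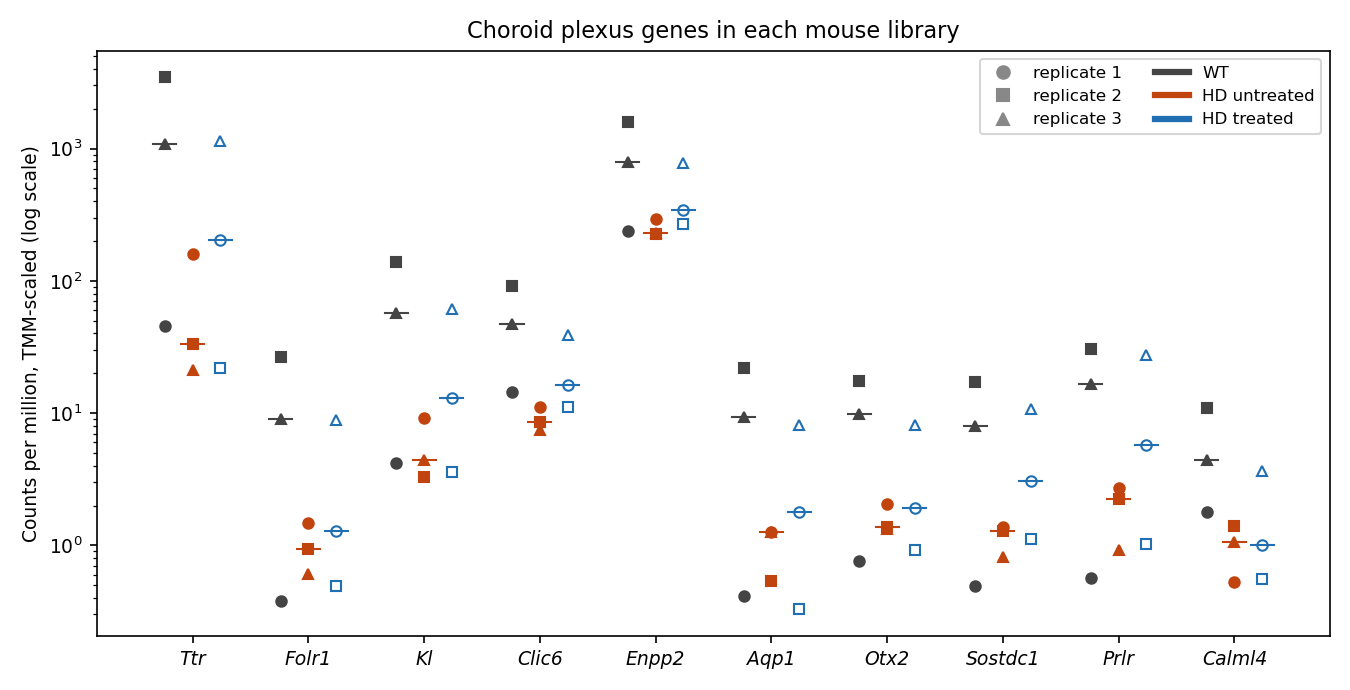
Level of each choroid plexus gene in each library, in TMM-scaled CPM on a log axis, with colours for the group, symbols for the replicate number and a short line at the median of the 3 mice of a group. In all 10 genes WT mouse 2 is highest and WT mouse 3 and treated mouse 3 are the next, while WT mouse 1 lies among the HD mice or below them.

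WT mouse 2, WT mouse 3 and treated mouse 3 were the 3 highest of the 9 libraries in 10 of 10 members, with WT mouse 2 first in each. The same 3 libraries were highest in 430 of the 19463 tested genes, or 2.21%. This pattern is what chose the members and is not a result about them. Genes that the rule did not list were read beside it. They share the libraries with the members, and their lists were chosen with earlier results of these data known. Of 32 other choroid plexus epithelium genes, 26 had these 3 libraries highest and 25 had WT mouse 2 first. Of 10 septal neuron genes 4 had them highest, of 12 hippocampal neuron genes 2, and of the endothelial, striatal and thalamic lists 1 gene each. The other lists examined, among them 25 ependymal and motile cilia genes, held 0 such genes. Of the 503 genes called lower in untreated than in WT mice, 95 had these 3 libraries highest, or 18.9%, and of the 291 that also passed an adjusted p under 0.05 it was 18, or 6.19%. All 10 members are among the 95. The order itself puts WT mice 2 and 3 above every untreated mouse, so genes called lower hold it more often by construction. These shares are therefore not read against the 2.21%.

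The spread within a group was large for the members and small for most genes. Since the members were picked because they vary between libraries of one group, their spread is a description and not a result about them. The standard deviation of log2 CPM among the 3 WT mice had a median of 2.60 over the 10 members and of 0.22 over all tested genes. Among treated mice these medians were 1.82 and 0.12, and among untreated mice they were 0.62 and 0.16. Above the 99th percentile of all tested genes stood 7 members among WT mice, 7 members among treated mice and 0 members among untreated mice. The ratio of the highest to the lowest WT mouse ran from 6.10 in Calml4 to 76.3 in Ttr. In treated mice the ratio ran from 2.90 in Enpp2 to 51.9 in Ttr, and in untreated mice from 1.29 in Enpp2 to 7.54 in Ttr.

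Set against Ttr, the other members did not keep one ratio in the 3 high libraries. For every 1000 CPM of Ttr, Enpp2 had 458.7 CPM in WT mouse 2, 734.7 CPM in WT mouse 3 and 687.4 CPM in treated mouse 3. Prlr had 8.88, 15.5 and 24.2 CPM for every 1000 CPM of Ttr in the same 3 mice. Folr1 stayed closest to Ttr, at 7.69, 8.34 and 7.85 CPM. Between treated mouse 3 and WT mouse 3 the ratio of levels lay between 0.827 in Otx2 and 1.66 in Prlr.

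The members were summed and set beside lists of genes of other cells and neighbouring regions. The members summed to 306.7, 5398 and 2028 CPM in WT mice 1, 2 and 3, to 482.1, 279.3 and 268.4 CPM in untreated mice and to 589.1, 309.9 and 2085 CPM in treated mice. The 32 other choroid plexus epithelium genes summed to 189.5, 1089 and 562.2 CPM in WT, to 178.3, 174.2 and 202.1 CPM in untreated and to 224.6, 178.4 and 538.9 CPM in treated mice. The same 3 libraries were highest in both sums, with WT mouse 2 first, and WT mouse 3 and treated mouse 3 exchanged places behind it. Ependymal and motile cilia genes summed to 222.3 CPM in WT mouse 2 and to between 127.4 and 172.6 CPM in the other 8 mice. Foxj1, which switches on the genes of motile cilia, was at 22.6 CPM in WT mouse 2, at 11.3 CPM in WT mouse 3 and at 15.3 CPM in treated mouse 3, and the other 6 mice lay between 11.0 and 17.8 CPM.

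Meningeal and stromal fibroblast genes summed to between 94.7 and 137.5 CPM over the 9 mice. Endothelial genes summed to between 218.0 and 264.6 CPM in WT and to between 272.3 and 328.8 CPM in HD mice. Untreated mouse 3 was highest in both lists. Plvap, which marks the fenestrated capillaries of the plexus, was at 6.08, 7.12 and 6.95 CPM in WT, at 7.86, 6.31 and 8.63 CPM in untreated and at 5.98, 5.86 and 7.49 CPM in treated mice, so that it did not follow the members. Red blood cell genes summed to 190.0, 107.1 and 188.3 CPM in WT mice and to between 2.77 and 67.3 CPM in HD mice, and treated mouse 3, which was high in the members, was at 3.91 CPM.

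Genes of neighbouring brain regions moved between libraries too. Cortical excitatory neuron genes summed to 1126, 555.2 and 378.9 CPM in WT mice 1, 2 and 3, to between 1286 and 1560 CPM in untreated and to between 913.4 and 970.4 CPM in treated mice. Slc17a7, the vesicular glutamate transporter of cortical neurons, was at 684.0 CPM in WT mouse 1, against 301.1 and 165.1 CPM in WT mice 2 and 3. Thalamic neuron genes summed to 527.7 CPM in WT mouse 3 and to between 125.6 and 246.9 CPM in the other 8 mice, and Tcf7l2, a thalamic transcription factor, was at 35.0 CPM in WT mouse 3 and at no more than 15.5 CPM elsewhere. Septal neuron genes summed to 61.2, 115.3 and 149.2 CPM in WT, to 57.1, 107.5 and 55.7 CPM in untreated and to 88.0, 77.4 and 98.4 CPM in treated mice. The WT mouse with the least of the members had the most of the cortical list, but this inverse order did not hold throughout. WT mouse 2, highest in the members, was not the lowest WT mouse in the cortical list. Untreated mouse 1 was the highest untreated mouse in both. Among treated mice, mouse 3 was highest in the members and lowest in the cortical list, whose 3 sums there were close. The part of tissue from these regions in the members' levels was not tested.

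**Figure D2:**
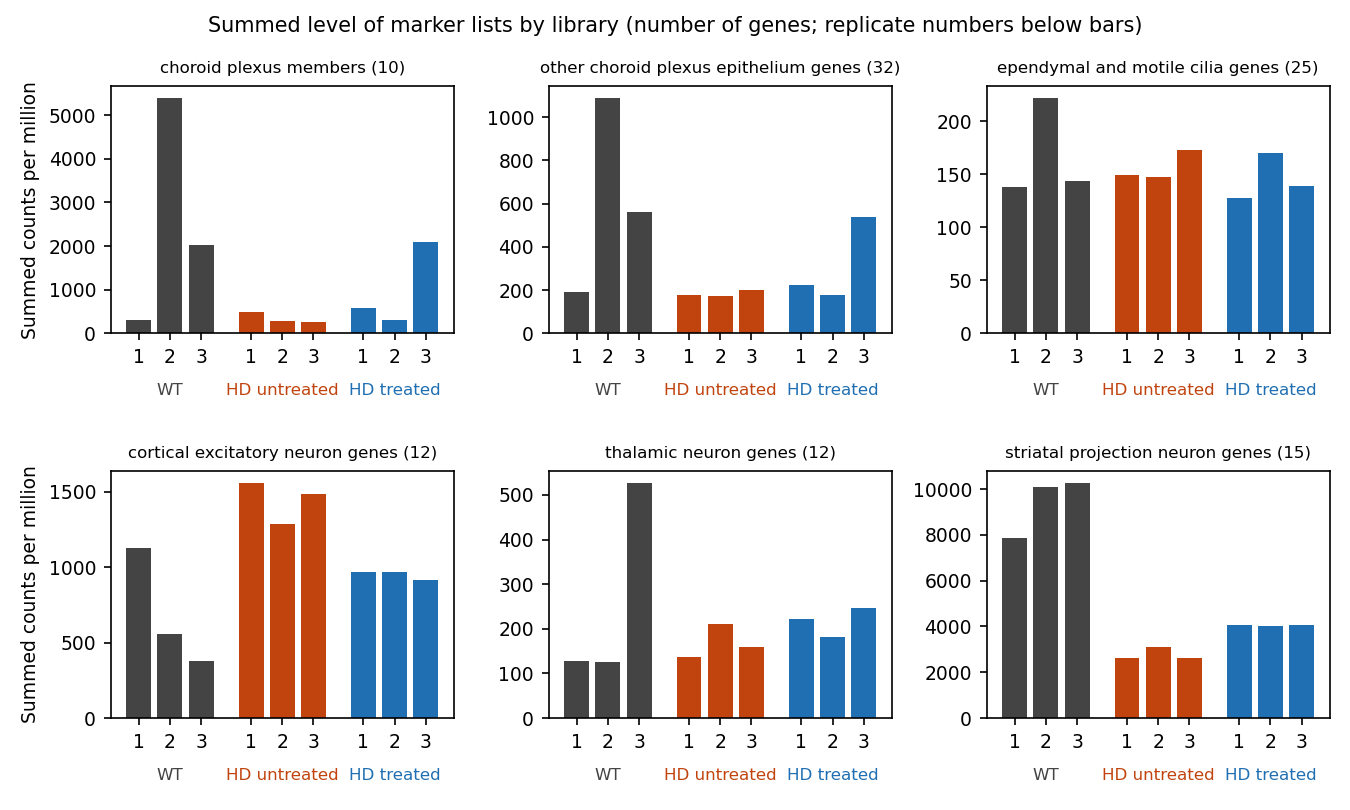
Summed CPM of the choroid plexus members, of other choroid plexus epithelium genes and of 4 lists for other cells or regions, with 1 bar for each of the 9 mice, the number of genes in each panel's title and axes that start at 0. The members reach 5398 in WT mouse 2, 2028 in WT mouse 3 and 2085 in treated mouse 3, whereas the ependymal list stays between 127.4 and 222.3.

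Untreated HD mice were compared with WT mice to ask how the members differ with the knock-in allele and CasRx. A gene was called when edgeR's quasi-likelihood test, fitted on all 19463 tested genes and all 9 libraries, gave an unadjusted P under 0.05 and the levels differed at least 2-fold. All 10 members were called lower in untreated mice, and 2.58% of all tested genes were called lower. With an adjusted p under 0.05 in place of the unadjusted P, 1 member was called, and 1.5% of all tested genes. The median log2 fold change was −2.96 over the members and 0.02 over all tested genes. Since the members were picked from these libraries, their count is not read against the background.

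The largest difference was that of Ttr, at −4.42 on the log2 scale with a standard error of 1.66 (unadjusted P = 0.0244, and 0.115 after Benjamini-Hochberg adjustment, in edgeR's quasi-likelihood test). Clic6 was the member that passed the adjusted threshold, at −2.50 on the log2 scale with a standard error of 0.64 (edgeR, adjusted p = 0.0387). Log2 fold changes were −3.57 for Folr1, −3.56 for Kl, −3.37 for Aqp1 and −3.03 for Prlr, with standard errors from 1.23 to 1.33. They were −2.88 for Sostdc1, −2.55 for Otx2, −2.50 for Calml4 and −1.80 for Enpp2, with standard errors from 0.60 to 1.08. Over these 8 members and Ttr the adjusted p of the edgeR test ran from 0.0749 in Calml4 to 0.159 in Prlr. Only Clic6 and Calml4 had no overlap between the untreated and the WT mice, a separation that 15.1% of all tested genes showed.

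With the share of Y-linked counts as a covariate, 2 of the 10 members were called lower, Clic6 and Calml4. Over all tested genes, 607 were called lower in that fit, against 503 without the covariate. Log2 fold changes in that fit ran from −3.97 in Ttr to −1.76 in Enpp2, against −4.42 and −1.80 without the covariate. That of Calml4 went from −2.50 to −3.43 and that of Sostdc1 from −2.88 to −2.89, while every other member moved toward 0. Among HD mice only untreated mouse 1 had Y-linked counts, so this covariate nearly coincides with group. The fit therefore cannot separate sex from group, and the part of sex in the members' levels was not tested. The calls also depended on single mice, and leaving out WT mouse 2 cost the most of them. Without WT mouse 2, the call was kept by 1 member, Clic6, whose log2 fold change was then −1.77 (standard error 0.59, unadjusted P = 0.0162 in edgeR). The log2 fold change of Ttr went to −2.98 (standard error 1.60, unadjusted P = 0.0987 in edgeR) and that of Enpp2 to −1.04 (standard error 0.54, unadjusted P = 0.0865 in edgeR). Without WT mouse 1, all 10 members were called and 8 passed an adjusted p under 0.05. Leaving out untreated mouse 1, 2 or 3 left 6, 3 or 5 members called, leaving out WT mouse 3 left 8 and leaving out treated mouse 1 left 9. Over all genes tested in each fit, 503 were called lower with all mice, 374 without WT mouse 2 and 682 without WT mouse 1. They were 518, 548 or 494 without untreated mouse 1, 2 or 3, 462 without WT mouse 3 and 520 without treated mouse 1. The 3 members called without untreated mouse 2 were Clic6, Enpp2 and Calml4, and Kl and Aqp1 joined them without untreated mouse 3. With WT mouse 2 and treated mouse 3 both left out, a setting chosen after the data were seen, 4 members were called lower. Over all genes tested in that fit it was 374. Clic6 was called in each of the 9 fits that left out 1 mouse, and all 10 log2 fold changes were negative in each of those fits.

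**Figure D3:**
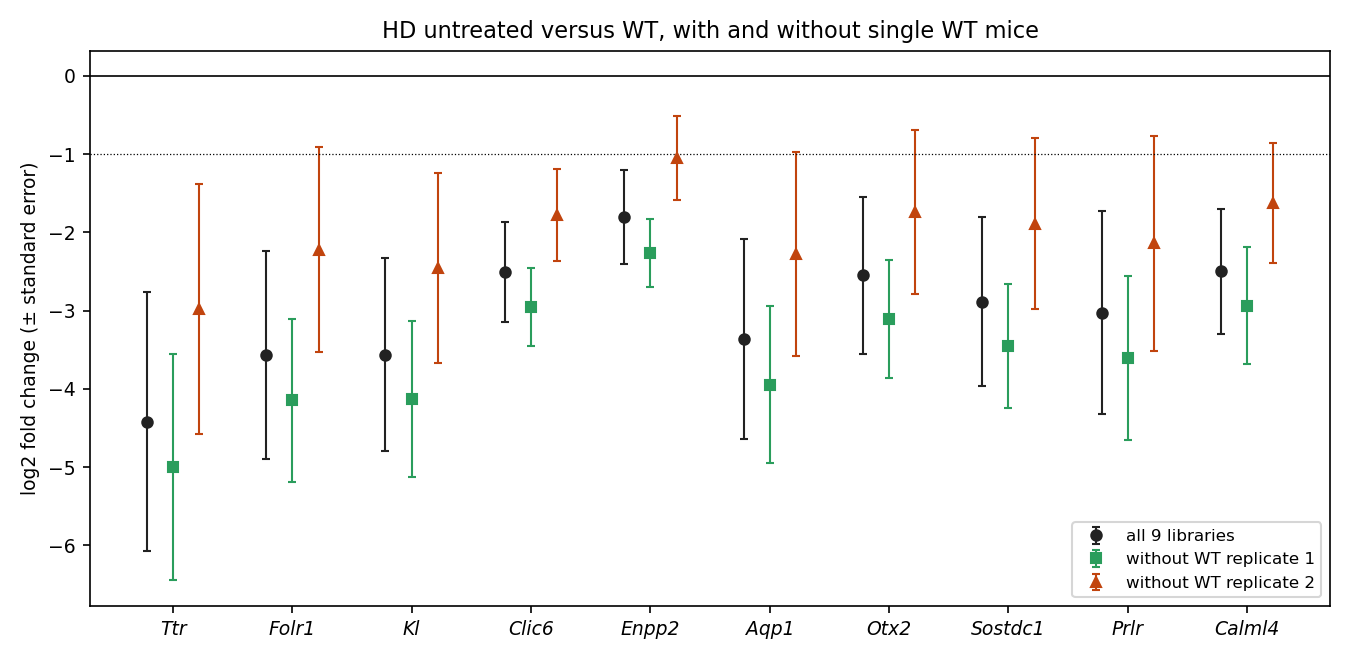
Log2 fold change of each choroid plexus gene in untreated HD against WT mice from edgeR, with bars of 1 standard error, for all 9 libraries and with WT mouse 1 or WT mouse 2 left out; the solid line is at 0 and the dotted line at a 2-fold decrease. Without WT mouse 2 each value moves toward 0, to −2.98 for Ttr and −1.04 for Enpp2, and without WT mouse 1 each moves away from 0.

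The other choroid plexus epithelium genes were not used by the rule, but they share the libraries with the members. Of the 32, 20 were called lower in untreated than in WT mice and 0 higher, with a median log2 fold change of −1.92. The share of all tested genes called lower was 2.58%. With an adjusted p under 0.05, 2 were called, Ace and Car12. Ace, angiotensin-converting enzyme, was at 26.4, 126.1 and 57.8 CPM in WT, at 11.5, 13.6 and 12.9 CPM in untreated and at 18.2, 12.6 and 41.7 CPM in treated mice. Car12, a membrane-bound carbonic anhydrase, was at 50.05, 98.8 and 104.8 CPM in WT, at 18.1, 22.2 and 29.7 CPM in untreated and at 37.0, 34.6 and 60.2 CPM in treated mice. In both genes each untreated mouse was below each WT mouse. This order was found in 4 of the 32 genes and in 15.1% of all tested genes. Without WT mouse 2 the count of other choroid plexus genes called lower was 2, without WT mouse 1 it was 26, and without untreated mouse 2 or untreated mouse 3 it was 8. Over all genes tested in these 4 fits, 374, 682, 548 and 494 were called lower.

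Lists of other cells and of neighbouring regions were counted in the same comparison. Of 25 ependymal and motile cilia genes, 0 were called lower and 1 higher, Sntn, a protein at the tip of cilia, and the median log2 fold change of the list was −0.10. Of 14 fibroblast genes 0 were called lower and 1 higher, and of 12 endothelial genes 0 were called either way. The median log2 fold change of the endothelial list was 0.34. Its gene Cldn5 was higher in untreated mice but below the 2-fold limit, at 0.79 on the log2 scale (edgeR, adjusted p = 0.00708). Of 12 cortical excitatory neuron genes 7 were called higher, where 5.57% of all tested genes were called higher, and of 15 striatal projection neuron genes 12 were called lower. Of all tested genes, 2.58% were called lower, and 1.5% with an adjusted p under 0.05. Of 10 septal neuron genes 2 were called lower, Lhx8 and Nkx2-1, transcription factors that striatal interneurons also express, and both passed an adjusted p under 0.05 in edgeR. Of 12 hippocampal neuron genes 2 were called lower, 1 of them with an adjusted p under 0.05, and of 12 thalamic neuron genes 1 was called lower, Gbx2. Drd1, the dopamine receptor of the direct pathway, was at 148.6, 188.5 and 245.1 CPM in WT mice and at 57.5, 74.2 and 56.9 CPM in untreated mice. Drd1 was well above the untreated mice in WT mouse 1 as well. Among the members, only Clic6 and Calml4 had WT mouse 1 above every untreated mouse.

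Treated HD mice were compared with WT mice by the same edgeR fit, and the comparison shares its WT libraries with the one before. At the same unadjusted P and 2-fold limit 0 of the 10 members were called in either direction, and 1.38% of all tested genes were called lower. The alternative tool, DESeq2, called 1 member lower, which was Calml4. Log2 fold changes ran from −1.75 in Ttr (standard error 1.48, adjusted p = 0.538 in edgeR) to −0.49 in Prlr (standard error 1.17, adjusted p = 0.849 in edgeR), with a median of −1.35. The smallest unadjusted P of the edgeR test was 0.0511, in Calml4. No member had every treated mouse below every WT mouse, an order found in 15.1% of all tested genes. Of the 32 other choroid plexus epithelium genes, 1 was called lower, which was Ace.

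The count of 0 depended on single mice. Without treated mouse 3, 7 members and 19 other choroid plexus genes were called lower than in WT mice, with a log2 fold change of −3.74 for Folr1 and −2.84 for Calml4. Without WT mouse 1, 6 members and 12 other choroid plexus genes were called. Ttr, Sostdc1 and Prlr were called in neither of these fits. Without WT mouse 2 none of either list was called, and the log2 fold changes of Sostdc1 and Prlr turned to 0.22 and 0.41. Prlr was also at 0.06 without treated mouse 2. Over all genes tested in each fit, 342 were called lower without treated mouse 3, 414 without WT mouse 1 and 202 without WT mouse 2, against 269 with all mice.

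**Figure D4:**
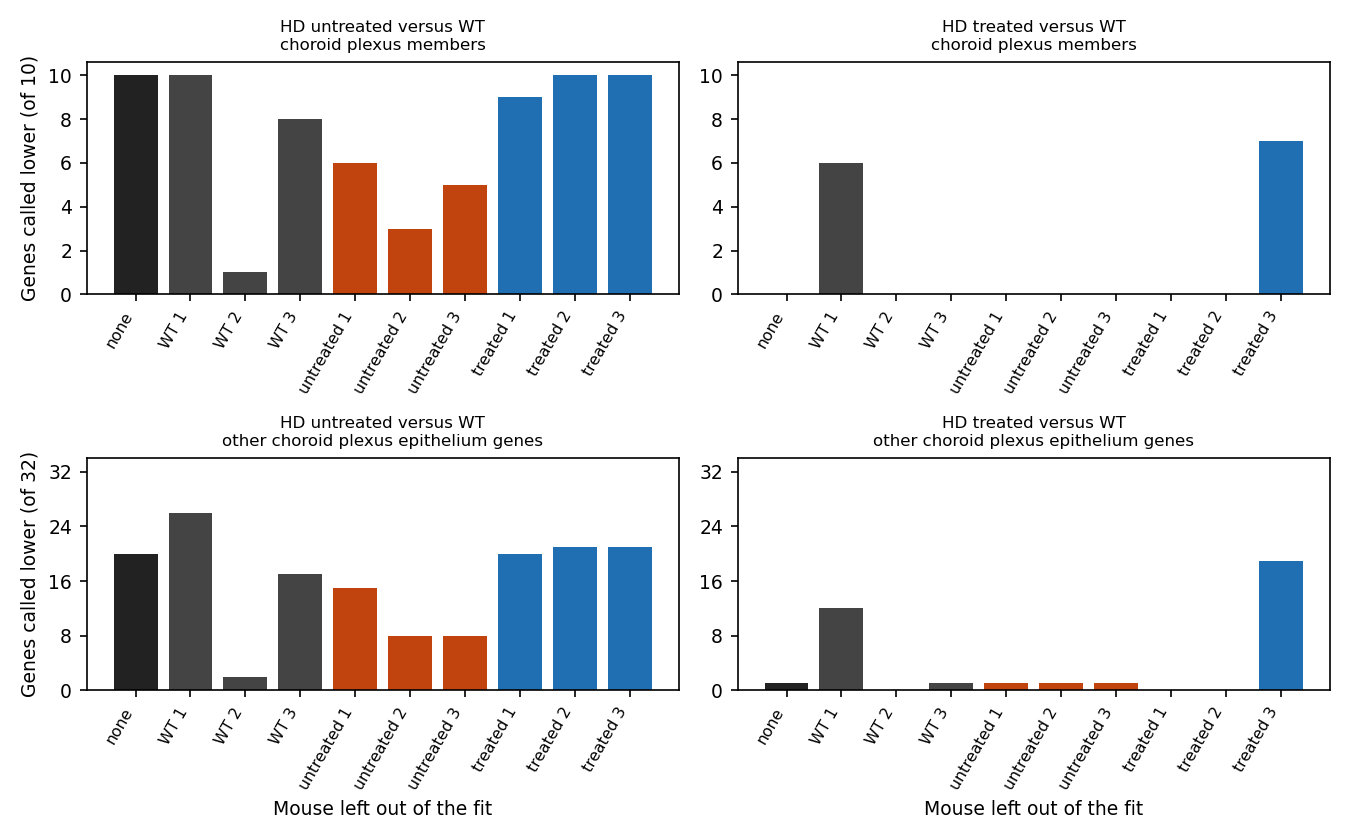
Number of choroid plexus members (upper panels, of 10) and of other choroid plexus epithelium genes (lower panels, of 32) called lower than in WT mice by edgeR, with all 9 libraries (none) and without 1 mouse at a time, for untreated (left) and treated (right) HD mice. The members called in untreated mice drop from 10 to 1 without WT mouse 2, and those called in treated mice go from 0 to 7 without treated mouse 3.

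Treated mice were then compared with untreated mice, which both carry the knock-in allele and CasRx and differ in the gRNAs. All 10 log2 fold changes were above 0, from 0.80 in Calml4 to 2.67 in Ttr, and the background of genes called higher was 0.36%. No member was called in either direction by edgeR, with unadjusted P from 0.0642 in Clic6 to 0.339 in Calml4 and adjusted p of 0.892 or more, and DESeq2 called 0 members as well. The log2 fold change of Clic6 was 1.31 (standard error 0.63), and Clic6 was the 1 member with every untreated mouse below every treated mouse, an order found in 6.92% of all tested genes. Of the 32 other choroid plexus epithelium genes, 0 were called in either direction by edgeR with all 9 libraries, and 1 was called higher by DESeq2. Without treated mouse 3 the log2 fold changes of Folr1, Otx2 and Calml4 were −0.17, −0.16 and −0.34, and that of Ttr was 0.67. Without WT mouse 1, and likewise without treated mouse 2, 4 members were called higher in treated mice, which were Kl, Clic6, Sostdc1 and Prlr. Of the other choroid plexus genes, 6 and 7 were called higher in these 2 fits, and over all genes tested in each fit 90 and 89. Without WT mouse 2, 1 member was called higher, Clic6, and 0 other choroid plexus genes.

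The likeness of genes to the members was measured as Pearson's r over the 9 libraries, between log2 CPM minus its group mean and the mean of the same over the 10 members. It is a description with no p, the 9 points share 3 group means, and a few high libraries set it. Among the 45 pairs of members r lay between 0.747 and 0.996, with a median of 0.969. Against the mean of the other 9 members, r was highest in Folr1 at 0.994 and in Otx2 at 0.993, and lowest in Calml4 at 0.834 and in Ttr at 0.961.

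Of the tested genes that are no members, 99 had an r above 0.9, and 21 of these were among the 32 other choroid plexus epithelium genes. None of the 25 ependymal and motile cilia genes was among them, and the median r was 0.944 in the first list and 0.213 in the second. Among the lists of other cells and regions, the median r was highest in septal neuron genes, at 0.519 with 1 gene above 0.9. It was 0.481 in striatal projection neuron genes and lowest in cortical excitatory neuron genes, at −0.545. The 12 genes most like the members were Col8a1 (r = 0.996), F5 (0.994), Slc13a4 (0.992), Slc4a5 (0.990), Trpm3 (0.988), Mfrp (0.987), Snrk (0.987), Tmem72 (0.986), Wdr86 (0.983), Trpv4 (0.982), Sgms2 (0.981) and Krt18 (0.980). Of these, 8 were in the list of other choroid plexus genes, and Trpm3, Snrk, Wdr86 and Sgms2 were not. Mfrp, a membrane protein with a frizzled-like domain, was at 2.04, 82.0 and 32.9 CPM in WT, at 3.47, 1.48 and 1.67 CPM in untreated and at 5.58, 0.791 and 35.3 CPM in treated mice. Slc4a5, a sodium bicarbonate cotransporter of the apical membrane, was at 0.453, 35.9 and 9.17 CPM in WT, at 1.30, 0.437 and 0.374 CPM in untreated and at 2.60, 0.725 and 11.8 CPM in treated mice. Snrk, a kinase, kept a narrow range despite its r, from 75.1 CPM in treated mouse 2 to 99.4 CPM in WT mouse 2.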

How the data were processed

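RNA from the striatum of 9 mice was primed with oligo-dT to sequence the 3′ ends of mRNA. The authors deposited raw counts per Ensembl gene, without normalization. The methods of the paper name STAR, and the submitters' processing notes name Trimmomatic 0.39, FastQC 0.11.9, HISAT2 2.2.1 and featureCounts 2.0.1. The mouse build and the use of strand are not given in the sources used here. Levels were compared between libraries rather than between genes. Of the 55357 identifiers, 52081 were named from GENCODE M21, and only chromosomes are given. A table of pig counts of the same series was not used here.

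The tests used edgeR 4.0.16 in R 4.3.3. Genes were kept by filterByExpr, libraries were scaled by TMM, and all 9 were fitted together (glmQLFit, 6 residual degrees of freedom) and tested with glmQLFTest. A gene was called at an unadjusted P under 0.05 and a 2-fold difference, as the paper's results state; its methods give 0.01. Adjusted p-values are Benjamini-Hochberg over all tested genes. Log2 CPM used a prior count of 2. Each library is 1 animal. Alternatives were other scalings, DESeq2 1.42.0, other filters and thresholds, a fit of 2 groups, a replicate block, a Y-linked covariate and each mouse left out.

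The members and all lists were chosen with earlier results of these data known. Named genes were all 10 members, the 12 genes most like them, defining markers (Foxj1, Plvap, Slc17a7, Tcf7l2 and Drd1), and up to 3 genes with the smallest P in untreated against WT mice from each other list. Steps were tested on simulated data. Promoters came from RefSeq (GRCm38.p6). Same-numbered mice are different animals.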

Additional observations from a re-analysis of the deposited data

How the results depend on the processing

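In untreated against WT mice, the number of members called lower was 10 of 10 with scaling without TMM factors, DESeq2 size factors, DESeq2, no filter, at least 10 counts in every library and a fit of the 2 groups. It was 1 (Clic6) at a P under 0.01, 1 at an adjusted p under 0.05 and 2 (Clic6 and Calml4) with a covariate for Y-linked counts. For the other choroid plexus genes, with 20 called, these 3 settings gave 2, 2 and 8. Over all tested genes, the 503 called lower became 607 with the Y-linked covariate. Leaving out 1 mouse at a time, the members called ranged from 1 to 10 and the other choroid plexus genes from 2 to 26, and without both WT mouse 2 and treated mouse 3, a setting chosen after seeing the data, there were 4 and 8. At an adjusted p under 0.05, DESeq2 called 5 members where edgeR called 1.

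In treated against WT mice, 0 members and 1 other choroid plexus gene were called. DESeq2 called 1 member (Calml4) and 2 other genes, the Y-linked covariate 1 (Calml4) and 2, the filter of 10 counts in every library 1 member (Calml4), and a P under 0.01 or an adjusted p under 0.05 left 0 other genes. The range was 0 to 7 members and 0 to 19 other genes with single mice left out, and 1 and 3 without WT mouse 2 and treated mouse 3. In treated against untreated mice all 10 members had log2 fold changes above 0, and 0 of either list were called lower under every setting run. The fit of the 2 groups called 4 members and 3 of the 29 other genes tested in it higher, and DESeq2 called 0 and 1. With single mice left out, 0 to 4 members and 0 to 7 other genes were called higher. Over all tested genes, the 269 called lower in treated than in WT mice became 164 with at least 10 counts in every library, 435 with no filter and 430 with the Y-linked covariate, and the 70 called higher in treated than in untreated mice became 16 with the first of these and 241 with the second.

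Directions reversed with 1 mouse left out for Sostdc1 (0.22 without WT mouse 2) and Prlr (0.41 without WT mouse 2, 0.06 without treated mouse 2) in treated against WT mice, and without treated mouse 3 for Folr1 (−0.17), Otx2 (−0.16) and Calml4 (−0.34) in treated against untreated mice, all as log2 fold changes. Over all mice left out singly, the lowest in treated against WT mice was −2.03 for Sostdc1 and −2.25 for Prlr, and the highest in treated against untreated mice was 2.34 for Folr1, 1.65 for Otx2 and 1.22 for Calml4. The cause was not tested.

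The replicate numbers are shared by the labels, but deviations of same-numbered mice correlated between −0.08 and 0.24, so the numbers do not pair the mice. With a replicate block, 3 members (Clic6, Enpp2 and Calml4) and 7 other choroid plexus genes were called lower in untreated than in WT mice. Values of single members near 10 counts have the least depth behind them.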
